A study of Mus musculus with 12 samples.

Results

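The genes described here are 9 enzymes that move nitrogen between amino acids in mouse pluripotent stem cells: the aminotransferases *Got1*, *Got2*, *Gpt2*, *Bcat1* and *Bcat2*, the glutamate and glutamine enzymes *Glud1* and *Glul*, and the aspartate-consuming enzymes *Asns* and *Ass1*. They were chosen by symbol, each symbol belonged to 1 gene, and they are 9 of the 57180 genes quantified. RNA was sequenced from an E14 embryonic stem cell (ESC) line in which doxycycline switches on a dCas9 repressor fusion, which guide RNAs bring to the start sites of chosen genes to repress them. The Neg line carries scramble guides and the 3xKD line carries guides against *Pcx*, *Me1* and *Me2*, which encode pyruvate carboxylase and the malic enzymes ME1 and ME2. Both lines were sequenced as naive ESCs, kept in N2B27 with 2i and LIF, and as epiblast-like cells (EpiLCs) at day 2 of induction, which resemble the formative epiblast. Induction used activin A, FGF2 and the tankyrase inhibitor XAV939, and antibiotic selection for the vectors was kept on in all groups. This gave 4 groups of 3 libraries. Both lines come from 1 chosen clone and were then transfected with their guide vectors, so line and knockdown cannot be told apart. Doxycycline was taken from the study's methods and is not in the labels, and libraries from cells without doxycycline were not analysed here. Libraries were grouped by their titles, since the cell-type field gives ESCs to all Neg and EpiLCs to all 3xKD libraries. The study's methods describe its experiments in general as biological triplicates and these cells as harvested in parallel, without saying how far apart the cultures of a group were kept, so p-values measure the spread between these libraries.

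Aminotransferases pass an amino group from an amino acid to a keto acid, usually with glutamate and alpha-ketoglutarate as partners. GOT1 in the cytosol and GOT2 in mitochondria interconvert aspartate and oxaloacetate, so they sit beside the oxaloacetate and malate that pyruvate carboxylase and the malic enzymes make and use. Glutamate dehydrogenase and GPT2 feed glutamate carbon into the TCA cycle as alpha-ketoglutarate, a source of carbon on which naive mouse ESCs are known to draw. Asparagine synthetase uses glutamine to turn aspartate into asparagine and is a classical target of ATF4, the transcription factor of the amino acid response.

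Libraries held between 11221023 and 19652197 estimated counts. Levels are given as TMM-normalised CPM, the count scaled to a fixed library total, and comparisons used edgeR's quasi-likelihood test over the 25446 genes with at least 10 counts. A gene is called where its Benjamini-Hochberg adjusted p is under 0.01 and its log2 fold change exceeds 0.58 in size, thresholds taken from the study's methods. The difference between the knockdown effects in the states was called on the adjusted p alone, with no fold limit. The targeted genes were lower in 3xKD libraries, with log2 fold changes in ESCs of −1.14 for *Pcx*, −0.89 for *Me1* and −0.95 for *Me2*, and in EpiLCs of −1.05, −1.05 and −0.98. The labelled states carried their markers: all 10 naive markers were called lower and all 9 formative markers higher in Neg EpiLCs than in Neg ESCs. The summed CPM of the naive list was 5181 to 5344 in Neg ESCs, 4029 to 4105 in 3xKD ESCs, 343 to 358 in Neg EpiLCs and 476 to 489.5 in 3xKD EpiLCs, and that of the formative list was 495 to 505, 424 to 439.96, 3798 to 4209 and 2189 to 2245.

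In 3xKD ESCs the alanine aminotransferase *Gpt2* was 2.45-fold and the aspartate aminotransferase *Got1* 1.99-fold higher than in Neg ESCs. In EpiLCs these genes were again higher, 2.64-fold and 1.51-fold, and *Asns* (2.20-fold) and *Bcat1* (2.32-fold) joined them. Thus 2 of 9 enzymes were called higher in 3xKD ESCs, against 8.5% of all genes tested, and 4 of 9 in 3xKD EpiLCs, against 7.88%. Such shares, here and below, are over all 25446 genes tested, of which 15032 averaged 1 CPM or more. The lowest group mean among the 9 enzymes was 21.97 CPM, that of *Gpt2* in Neg EpiLCs. Shares among genes of like level were not computed. With edgeR 0 of 9 were called lower in either state, against 6.76% of all genes in ESCs and 5.35% in EpiLCs. DESeq2 also called 0 lower in each state, whereas an unadjusted p under 0.05 was met below 0 by 3 enzymes in ESCs and by 1 in EpiLCs. The median log2 fold change of the 9 enzymes was 0.06 in ESCs and 0.28 in EpiLCs, and that of all genes tested was 0.03 in both states.

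**Figure D1:**
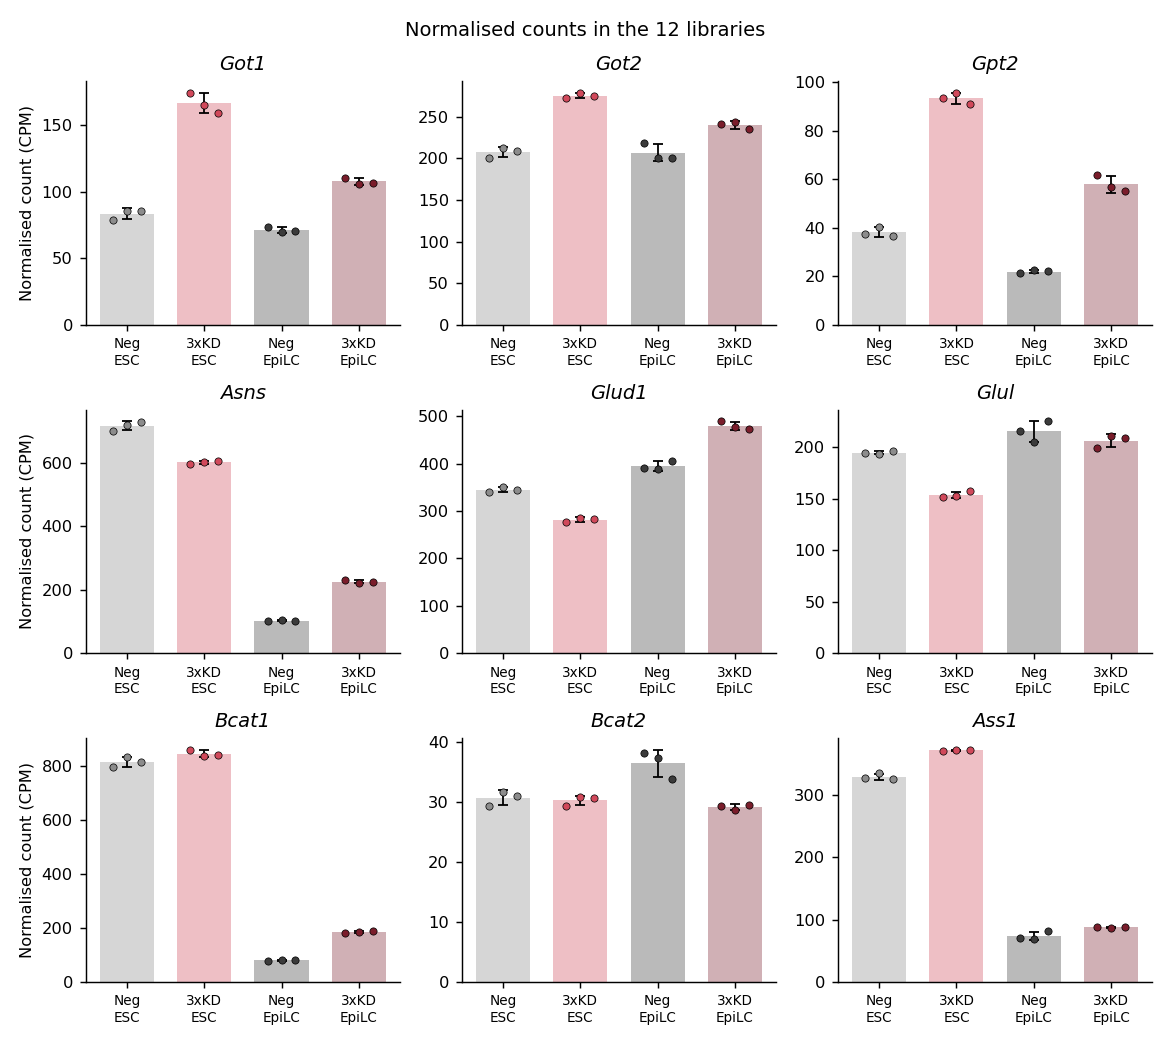
Normalised counts (CPM, linear axes from 0) of the 9 enzymes in Neg and 3xKD ESCs and EpiLCs. Points are single libraries, bars are the means of 3 and error bars the SD. *Asns*, *Bcat1* and *Ass1* were far lower in EpiLCs than in ESCs, and *Got1* and *Gpt2* were higher in 3xKD than in Neg libraries in both states.

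*Gpt2* (GRCm39 chr8:86218810-86255577, plus strand) encodes the mitochondrial alanine aminotransferase, which makes alanine and alpha-ketoglutarate from pyruvate and glutamate. Its CPM was 37.4, 40.5 and 36.7 in Neg ESCs and 93.7, 95.7 and 91.1 in 3xKD ESCs. In EpiLCs it was 21.3, 22.5 and 22.1 in Neg and 61.7, 56.9 and 55.1 in 3xKD libraries. Every 3xKD library lay above every Neg library of either state. The log2 fold change was 1.29 in ESCs (standard error 0.052, edgeR adjusted p = 1.5e-11) and 1.40 in EpiLCs (standard error 0.055, edgeR adjusted p = 1.6e-11). The difference between the states, 0.11 with a standard error of 0.076, did not pass the test (adjusted p = 0.42, edgeR).

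*Got1* (chr19:43488188-43513674, minus strand), the cytosolic aspartate aminotransferase, had 79.0, 85.8 and 85.8 CPM in Neg ESCs and 174, 165 and 159 CPM in 3xKD ESCs. In EpiLCs it had 73.7, 69.5 and 70.7 CPM in Neg and 110.6, 106 and 107 CPM in 3xKD libraries. The groups did not overlap in either state, and the step was larger in ESCs. The log2 fold change was 0.99 in ESCs (standard error 0.043, edgeR adjusted p = 3.4e-11) and 0.60 in EpiLCs (standard error 0.044, edgeR adjusted p = 1.4e-08). The EpiLC value lies at the fold limit and was 0.58, under it, without 3xKD EpiLCs replicate 1. The effect in EpiLCs was smaller than that in ESCs by a log2 difference of −0.40 (standard error 0.062, edgeR adjusted p = 2.4e-04), which was not called with offsets for transcript length (−0.40, edgeR adjusted p = 0.15).

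*Got2* (chr8:96590760-96615190, minus strand), the mitochondrial aspartate aminotransferase, stayed inside the fold limit in both states. In ESCs its CPM was 201, 212 and 209 in Neg and 272, 279 and 275 in 3xKD libraries, a log2 fold change of 0.41 (standard error 0.037, edgeR adjusted p = 1.3e-07). In EpiLCs its CPM was 218, 201 and 201 in Neg and 242, 244 and 235 in 3xKD libraries, a log2 fold change of 0.22 (standard error 0.037, edgeR adjusted p = 1.4e-04). The 3xKD libraries were above the Neg libraries without overlap in both states, by 1.33-fold and 1.16-fold.

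The promoters of the 9 enzymes, taken as the 250 bases before the start of the transcript with the highest mean TPM, were searched on both strands for TGATGNAA, the composite element that ATF4 and C/EBP proteins are known to bind, and for CACGTG, the E-box bound by MYC and related factors. *Got1* and *Gpt2* each held 1 match to TGATGNAA, and the other 7 windows held none. Both genes were also called in both states, and a link between the matches and those calls was not tested. Each line below gives 30 bases of the gene's own strand, 5′ to 3′, with the match in capitals.
Got1: cattgcattggTTGCATCAtacaagcctcc
Gpt2: tatggctgggaTGATGAAActcaaggcgaa
The *Got1* stretch is GRCm39 chr19:43513128-43513157 on the minus strand, its match reads TGATGCAA on the opposite strand, and it ends 70 bases before the start. The *Gpt2* stretch is GRCm39 chr8:86218828-86218857 on the plus strand, and its match ends 142 bases before the start. Both stretches lie within the annotated spans of their genes given above. TGATGNAA was present in 2.18% of 13232 such windows of protein-coding genes that averaged 1 CPM or more, and CACGTG, in none of the 9 windows, in 7.69%. Other annotated transcripts begin upstream of the start used for 7 of the genes, 18 of *Bcat2*, 4 of *Bcat1*, 3 of *Gpt2*, 2 each of *Asns* and *Ass1* and 1 each of *Got1* and *Got2*, and windows before those starts were not searched. A match is a description of the sequence and no measure of binding, which was not assayed here.

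**Figure D2:**
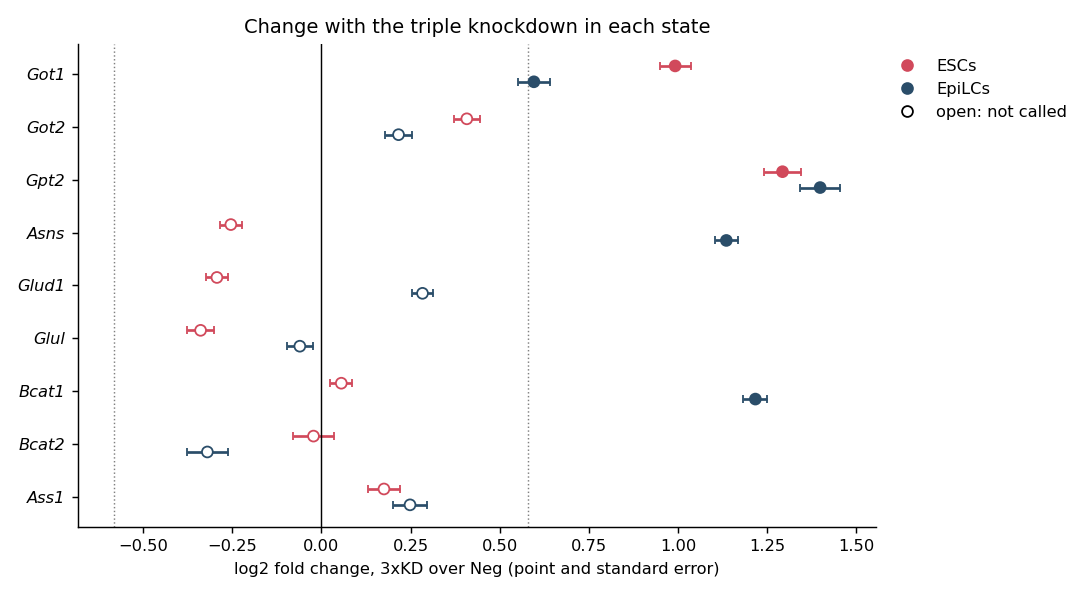
Log2 fold change of 3xKD over Neg for each enzyme in ESCs (red) and EpiLCs (blue), with standard errors. Filled points were called, open points were not, and dotted lines mark 0.58 in each direction. *Gpt2* and *Got1* were called in both states, while *Asns* and *Bcat1* were called in EpiLCs alone.

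*Asns* (chr6:7671667-7728461, minus strand), asparagine synthetase, was abundant in ESCs and far lower in EpiLCs. Its CPM was 701, 720.1 and 729 in Neg ESCs and 595, 602 and 606 in 3xKD ESCs. As EpiLCs the counts were 101, 105 and 103 in Neg and 232, 220.1 and 225 in 3xKD libraries. The 3xKD libraries were thus below the Neg libraries as ESCs and above them as EpiLCs, without overlap in either state. In ESCs the log2 fold change was −0.25 (standard error 0.030, edgeR adjusted p = 3.4e-06), which is inside the fold limit. In EpiLCs it was 1.14 (standard error 0.032, edgeR adjusted p = 7.3e-13) and was called.

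The knockdown effect on *Asns* differed between the states by a log2 difference of 1.39 (standard error 0.044, edgeR adjusted p = 1.2e-11). From ESCs to EpiLCs its level dropped to 14.3% in the Neg line and to 37.5% in the 3xKD line. As log2 fold changes these are −2.80 (standard error 0.033) and −1.41 (standard error 0.031), and both were called.

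*Bcat1* (chr6:144939556-145022254, minus strand), the cytosolic branched-chain aminotransferase, which moves the amino group of leucine, isoleucine and valine onto alpha-ketoglutarate, showed a pattern of the same kind in EpiLCs. Its CPM was 793, 829.8 and 814 in Neg ESCs and 859, 835 and 839.8 in 3xKD ESCs. Its EpiLC values were 78.0, 80.9 and 79.7 in Neg and 181, 185 and 189 in 3xKD libraries. The ESC groups lay next to each other without overlap, whereas in EpiLCs the lowest 3xKD library was far above the highest Neg library. The log2 fold change was 0.06 in ESCs (standard error 0.031, edgeR adjusted p = 0.17) and 1.22 in EpiLCs (standard error 0.034, edgeR adjusted p = 6.3e-13), a difference of 1.16 (standard error 0.046, edgeR adjusted p = 1.7e-10). Its EpiLC level was 9.79% of the ESC level in the Neg line and 21.9% in the 3xKD line, with log2 fold changes of −3.35 (standard error 0.035) and −2.19 (standard error 0.033).

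Markers of cell state also differed between the lines. In 3xKD EpiLCs 5 of 10 naive markers were called higher and 1 lower than in Neg EpiLCs, among them *Nanog* (1.07, standard error 0.044) and *Esrrb* (0.89, standard error 0.037), and 7 of 9 formative markers were called lower, among them *Pou3f1* (−1.83, standard error 0.063) and *Fgf5* (−1.01, standard error 0.124). In 3xKD ESCs 5 of 10 naive markers were called lower. Trophoblast markers moved as well: the 6 genes summed to 76.1 to 81.0 CPM in Neg ESCs and 94.3 to 109 in 3xKD ESCs, and to 38.3 to 39.9 in Neg EpiLCs and 67.4 to 68.3 in 3xKD EpiLCs. *Tfap2c* (1.21), *Krt8* (1.43) and *Krt18* (1.20) were called higher in 3xKD EpiLCs, while *Cdx2* (0.59), *Elf5* (0.35) and *Eomes* (0.08) were not called. In 3xKD ESCs 2 of the 6 were called higher, *Krt8* (0.83) and *Krt18* (1.15), and 1 lower, *Cdx2* (−2.50, standard error 0.353). The 6 primitive endoderm markers summed to 21.5 to 24.1 CPM in Neg ESCs, 28.1 to 31.0 in 3xKD ESCs, 23.8 to 28.6 in Neg EpiLCs and 18.2 to 19.8 in 3xKD EpiLCs, and no marker of either list was at 0 in all libraries of a group. The part of these markers in the knockdown differences of the enzymes, those of *Asns* and *Bcat1* in EpiLCs included, was not tested. In these bulk libraries a change in the share of cells and a change in RNA per cell cannot be told apart.

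*Ass1* (chr2:31352181-31410862, plus strand), argininosuccinate synthetase, joins citrulline and aspartate on the way to arginine. Its CPM was 328, 335 and 326 in Neg ESCs and 371, 373 and 373 in 3xKD ESCs. In EpiLCs it was 70.0, 69.4 and 81.6 in Neg and 88.3, 86.4 and 87.9 in 3xKD libraries. The 3xKD libraries were higher without overlap in both states, but by little: the log2 fold changes were 0.18 (standard error 0.044, edgeR adjusted p = 0.0039) and 0.25 (standard error 0.049, edgeR adjusted p = 5.4e-04), inside the fold limit. The drop from ESCs to EpiLCs was called in both lines, to 22.3% of the ESC level in Neg and to 23.5% in 3xKD cells, with log2 fold changes of −2.16 (standard error 0.048) and −2.09 (standard error 0.047). The knockdown effects in the states differed by 0.07 (standard error 0.066, edgeR adjusted p = 0.54), so a difference between the lines was not detected, as it was for *Asns* and *Bcat1*.

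**Figure D3:**
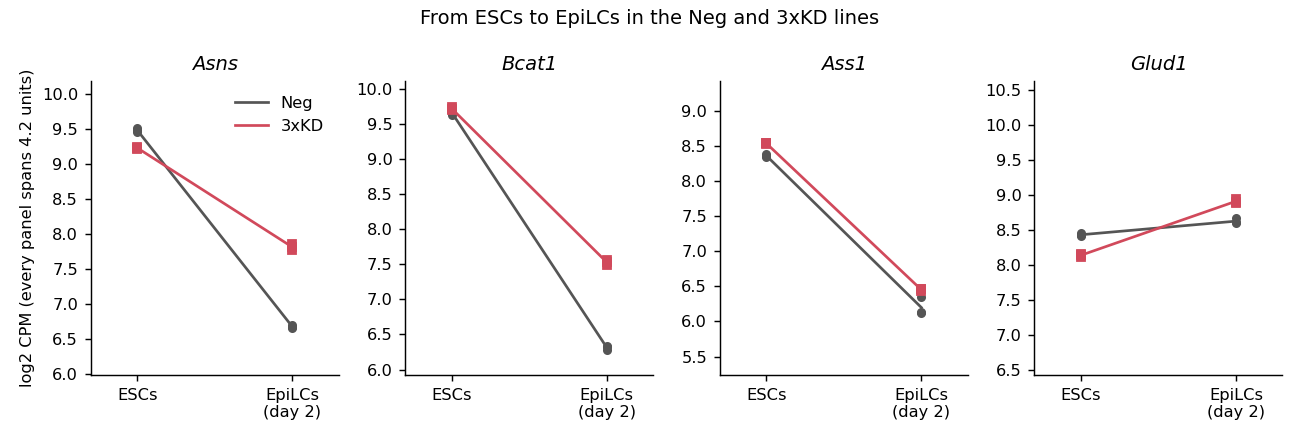
Log2 CPM of *Asns*, *Bcat1*, *Ass1* and *Glud1* in ESCs and day 2 EpiLCs of the Neg (grey circles) and 3xKD (red squares) lines. Points are libraries, lines join group means, and every panel spans the same log2 range. *Asns* and *Bcat1* dropped less in the 3xKD line, the *Ass1* lines run nearly parallel, and the *Glud1* lines cross.

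*Glud1* (chr14:34032583-34067642, plus strand), the mitochondrial glutamate dehydrogenase, had, like *Asns*, knockdown effects of opposite sign in the states. In ESCs its CPM was 341, 351 and 344 in Neg and 277, 286 and 283 in 3xKD libraries. In EpiLCs it was 390.1, 388 and 406 in Neg and 489.9, 478 and 473 in 3xKD libraries. All 3xKD libraries were below the Neg libraries as ESCs and above them as EpiLCs. The log2 fold changes were −0.29 (standard error 0.031, edgeR adjusted p = 8.9e-07) and 0.28 (standard error 0.031, edgeR adjusted p = 1.2e-06), both inside the fold limit, and their difference was 0.58 (standard error 0.044, edgeR adjusted p = 1.3e-07). From ESCs to EpiLCs *Glud1* rose in the 3xKD line (0.77, standard error 0.031) and was called, while the Neg line gave 0.19 (standard error 0.031) and was not.

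*Glul* (chr1:153775690-153785469, plus strand), glutamine synthetase, makes glutamine from glutamate and ammonia. Its CPM was 194, 194 and 197 in Neg ESCs and 152, 153 and 158 in 3xKD ESCs, with no overlap. In EpiLCs it was 216, 205 and 225 in Neg and 199, 211 and 209 in 3xKD libraries, and the groups overlapped. The log2 fold change was −0.34 in ESCs (standard error 0.037, edgeR adjusted p = 1.4e-06), inside the fold limit, and −0.06 in EpiLCs (standard error 0.037, edgeR adjusted p = 0.23). The difference between these effects, 0.28 (standard error 0.053, edgeR adjusted p = 0.0013), was not called with offsets for transcript length (0.17, edgeR adjusted p = 0.44).

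*Bcat2* (chr7:45219577-45239152, plus strand), the mitochondrial branched-chain aminotransferase, had 331 to 620 counts per library. *Gpt2* had 335 to 719 in the Neg libraries. It had 29.3, 31.7 and 31.1 CPM in Neg ESCs and 29.4, 30.8 and 30.7 CPM in 3xKD ESCs, so the ranges overlapped and the log2 fold change was −0.02 (standard error 0.058, edgeR adjusted p = 0.81). In EpiLCs it had 38.2, 37.4 and 33.8 CPM in Neg and 29.4, 28.7 and 29.5 CPM in 3xKD libraries, a log2 fold change of −0.32 (standard error 0.057, edgeR adjusted p = 2.3e-04) inside the fold limit. It was below the Neg level in 3xKD EpiLCs, where its cytosolic counterpart *Bcat1* was above it.

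Over the whole set, the test of the difference between the knockdown effects called 5 of 9 enzymes, *Asns*, *Bcat1*, *Glud1*, *Glul* and *Got1*, at an adjusted p under 0.01 and with no fold limit, against 10% of all genes tested. With the fold limit as well, *Asns* and *Bcat1* pass. For *Got1* the effect was smaller in EpiLCs, and for the other 4 the EpiLC value was the higher one. *Got2* (−0.19, edgeR adjusted p = 0.017) and *Bcat2* (−0.30, edgeR adjusted p = 0.018) did not pass that threshold. DESeq2 did call the *Got2* difference (−0.18, DESeq2 adjusted p = 0.0088), as did edgeR with upper-quartile factors (−0.20, edgeR adjusted p = 0.0082).

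Between the states, most of the called enzymes were lower in EpiLCs. In the Neg line 4 of 9 enzymes, *Bcat1*, *Asns*, *Ass1* and *Gpt2*, were called lower in EpiLCs, against 11% of all genes, and 0 were called higher by edgeR or by DESeq2, against 9.78%, although 3 were above 0 at an unadjusted p under 0.05. In the 3xKD line *Got1* joined these, giving 5 of 9 called lower against 9.32%, and *Glud1* was the 1 called higher against 9.42%. The median log2 fold change of the 9 was −0.23 in the Neg line and −0.63 in the 3xKD line, where all genes had a median of 0.01. *Gpt2* had log2 fold changes of −0.80 (standard error 0.057) in Neg and −0.69 (standard error 0.050) in 3xKD cells. With transcript-length offsets the values of *Gpt2* were −0.81 and −0.72 with edgeR adjusted p of 0.012 and 0.020, past the limit for a call. The *Got1* change in the 3xKD line, −0.63, was under the fold limit with upper-quartile factors (−0.55) and without 3xKD ESCs replicate 1 (−0.58). *Got2* (−0.01 in Neg, −0.20 in 3xKD), *Glul* (0.15, 0.42) and *Bcat2* (0.24, −0.05) were not called in either line. The knockdown and differentiation comparisons share libraries, so their values are not independent of each other.

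Levels were compared between enzymes in TPM, which are scaled by transcript length. In Neg ESCs the order of median TPM was *Asns* (258), *Bcat1* (222), *Ass1* (153), *Glud1* (129), *Glul* (67.0), *Got2* (53.1), *Got1* (31.3), *Bcat2* (11.97) and *Gpt2* (8.85). The neighbours *Asns* and *Bcat1*, *Ass1* and *Glud1*, *Glul* and *Got2*, and *Bcat2* and *Gpt2* had overlapping ranges over the 3 libraries. In Neg EpiLCs *Glud1* (183) came first, then *Glul* (97.9), *Got2* (70.3), *Asns* (50.8), *Ass1* (49.7), *Bcat1* (31.8), *Got1* (30.9), *Bcat2* (19.4) and *Gpt2* (6.06). Only *Asns* with *Ass1*, and *Bcat1* with *Got1*, overlapped among neighbours in that order. Asparagine synthetase and the cytosolic branched-chain aminotransferase thus led in Neg ESCs, and glutamate dehydrogenase and glutamine synthetase in Neg EpiLCs. The place of *Glul* above *Got2* in Neg EpiLCs depends on short transcript entries. Its leading transcript held 55.9% of its TPM there by group median, against 95.1% for *Got2*. In CPM the Neg EpiLC ranges overlapped, 205 to 225 for *Glul* and 201 to 218 for *Got2*.

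In 3xKD ESCs *Bcat1* (241), *Asns* (239) and *Ass1* (179) led, and *Gpt2* (26.7) lay above *Bcat2* (13.0) without overlap. In 3xKD EpiLCs *Glud1* (216) led without overlap, followed by *Asns* (89.6) and *Glul* (86.5), and 6 of the 8 neighbouring pairs overlapped. TPM spread more between replicates than CPM did for several of these genes, and *Gpt2* spanned 11.5 to 25.2 TPM in 3xKD EpiLCs.

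**Figure D4:**
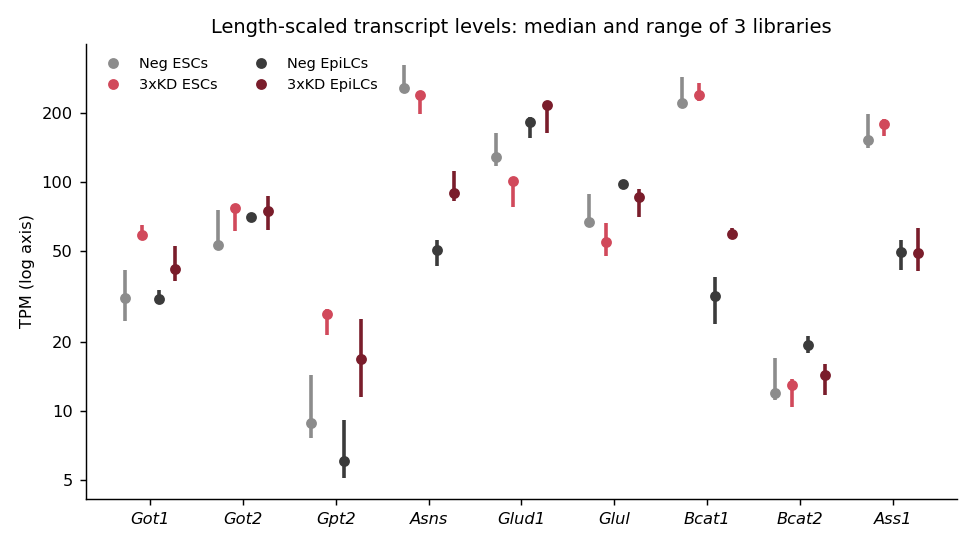
TPM (log axis) of the 9 enzymes in the 4 groups. Points are medians and lines the range of 3 libraries. *Asns*, *Bcat1* and *Ass1* headed the order in ESCs, and *Glud1* headed it in EpiLCs.

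The cytosolic and mitochondrial forms of an enzyme were also set against each other within each library. The TPM ratio of *Got1* to *Got2* was 0.489, 0.547 and 0.590 in Neg ESCs and 0.912, 0.818 and 0.756 in 3xKD ESCs. It was 0.496, 0.418 and 0.439 in Neg EpiLCs and 0.605, 0.558 and 0.5996 in 3xKD EpiLCs. The 3xKD libraries had the higher ratio without overlap in each state. The TPM ratio of *Bcat1* to *Bcat2* was 19.9, 16.8 and 17.7 in Neg ESCs and 21.7, 20.9 and 17.4 in 3xKD ESCs, where the groups overlapped. It was 1.24, 1.49 and 2.15 in Neg EpiLCs and 3.92, 4.05 and 5.04 in 3xKD EpiLCs, where they did not.

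Counts of these genes could be shared with few copies or neighbours. The leading transcript of each enzyme was aligned to all GENCODE vM39 transcripts at 95% identity or more over at least 100 bases. Genes matching *Glud1* held counts equal to 14.2% of its own, mostly *Bcl7c* (379 identical bases, 9.08%) and *Shld2*, which overlaps *Glud1* on the other strand (719 bases, 4.78%), so small changes of *Glud1* carry that uncertainty. For the other 8 enzymes the share was at most 1.79%, including *Got2*, whose pseudogene *Got2-ps1* held 0.173% of its counts. Antisense matches, such as *Shld2* and all those of *Gpt2*, were counted although the libraries are directional, so these shares may be too high. Medians of the log2 fold change over the chromosomes that carry the 9 enzymes lay between −0.052 and 0.053 in the knockdown and differentiation comparisons. Chromosome 16, which carries none of them, stood apart, with a median of 0.298 in ESCs and 0.300 in EpiLCs for 3xKD against Neg over 454 genes, where the other chromosomes lay between −0.052 and 0.064. From the lists below, *Abat*, *Nit2* and *Prodh* lie on chromosome 16, and its part in their values was not tested.

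Among related pathways, lists that share substrates with the 9 enzymes were counted in the same tests. Their counts stand beside the shares of all genes called higher, 8.5% in ESCs and 7.88% in EpiLCs, and called lower, 6.76% and 5.35%. Of 11 other aminotransferases tested, 3 were called higher in 3xKD ESCs and 3 in 3xKD EpiLCs, with list medians of 0.73 and 0.29. *Psat1*, the phosphoserine aminotransferase of serine synthesis, was called in both (log2 fold changes 0.79 and 0.77, standard error 0.032 for each). *Abat*, which breaks down GABA, was also called in both (0.73, standard error 0.164, and 1.20, standard error 0.163). *Got1l1*, related to *Got1* in sequence, was called in ESCs (1.28, standard error 0.112), and *Kyat1*, a kynurenine aminotransferase, in EpiLCs (0.87, standard error 0.123). The ESC median of 0.73 takes in 3 genes with wide errors that were not called. These were *Agxt* (1.85, standard error 1.68), *Aadat* (1.60, standard error 0.97) and *Tat* (0.75, standard error 1.59).

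Of 11 glutaminases and glutamine amidotransferases, 5 were called higher in 3xKD ESCs and 3 in 3xKD EpiLCs (medians 0.50 and 0.21). *Gfpt2* of the hexosamine pathway (1.06 and 0.90), *Nadsyn1* of NAD synthesis (1.02 and 1.46) and the glutaminase *Gls2* (0.72 and 0.77) were called in both states. The remaining calls in ESCs, named after their values were seen, were *Cad* (0.61) and *Ctps2* (0.58) of pyrimidine synthesis.

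The proline list had 2 of 6 genes called higher in each state (medians 0.69 and 0.32), *Aldh18a1* (0.97 and 0.86) and *Pycr1* (1.00 and 1.35), which make proline from glutamate. Its ESC median takes in *Prodh2* (1.88, standard error 1.25), which was not called. Of 5 arginine and urea cycle genes, 1 was called higher and 1 lower in each state (medians 0.45 and −0.08). *Nags* (2.48, standard error 0.305) and *Arg2* (−0.69, standard error 0.122) were those in ESCs, and *Asl* (0.89, standard error 0.079), the enzyme that follows *Ass1*, and *Arg1* (−1.33, standard error 0.282) those in EpiLCs. *Nags* averaged 1.02 CPM in Neg ESCs and *Arg1* 4.56 CPM in Neg EpiLCs, so both are low counts. The arginine list median of 0.45 in ESCs is the value of *Arg1* itself, with a standard error of 1.02.

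Of 6 asparagine and aspartate breakdown genes, 2 were called higher in 3xKD ESCs, the asparaginases *Aspg* (1.62, standard error 0.245) and *Asrgl1* (0.94, standard error 0.072), and *Aspa* was called lower (−1.06, standard error 0.178). In EpiLCs edgeR and DESeq2 each called 0 of these 6, with 2 at an unadjusted p under 0.05. The list medians were 0.47 and 0.24, and that of ESCs takes in *Ddo* (0.60, standard error 1.09), which was not called. Of 18 genes of branched-chain amino acid breakdown, downstream of *Bcat1* and *Bcat2*, 1 was called higher in each state, *Hibadh* in ESCs (0.64, standard error 0.052) and *Hibch* in EpiLCs (0.62, standard error 0.104), with medians of 0.10 and 0.13. In a list of 18 genes, 1 call is close to the shares of all genes called higher. At an unadjusted p under 0.05, 7 were above 0 and 6 below in ESCs, and 8 above and 4 below in EpiLCs. Of 5 partners of the malate-aspartate shuttle, in which *Got1* and *Got2* act, edgeR and DESeq2 called 0 in either state, although 4 ESC values and 2 EpiLC values had an unadjusted p under 0.05. *Mdh1* had 0.14 and 0.09 and *Mdh2* 0.25 and 0.01, so the shuttle's dehydrogenases were not called with *Got1*.

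Of 22 carriers of glutamine, glutamate and neutral amino acids, 6 were called higher and 3 lower in 3xKD ESCs and 7 higher and 2 lower in 3xKD EpiLCs (medians 0.31 and 0.30). *Slc1a4*, a carrier of alanine, serine and cysteine, was called in both (1.37 and 1.37, standard error 0.060 for each). So were *Slc38a3*, a glutamine carrier (1.29 and 1.33), and *Slc7a5*, a large neutral amino acid carrier (0.99 and 1.19). Among the carriers called in ESCs *Slc7a8* had the largest change (1.40, standard error 0.135). Also called higher were *Slc1a5*, which carries glutamine too, in both states (0.99 and 0.98) and *Slc3a2* in ESCs (0.75). In EpiLCs *Slc7a8* (1.17), *Slc7a1* (0.78) and *Slc38a7* (0.70) were called higher as well. The carriers called lower, named here after their values were seen, were the glutamine carriers *Slc38a1* in ESCs (−0.73) and *Slc38a2* in both states (−0.88 and −1.12), and *Slc25a44*, a mitochondrial branched-chain amino acid carrier, in both (−1.03 and −0.94).

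The amino acid response list, factors and targets around ATF4, had 8 of 15 entries called higher in 3xKD ESCs and 5 of 15 in 3xKD EpiLCs (medians 0.65 and 0.17), with *Ddit3* entered under 2 gene IDs. *Nupr1* was 1.99 and 2.20 (standard errors 0.105 and 0.109), *Trib3* 1.58 and 1.76 (standard errors 0.083 and 0.081) and *Vldlr* 1.48 and 1.42 (standard errors 0.124 and 0.136). *Ddit3* was 1.99 and 1.32 (standard errors 0.063 and 0.060) for its main ID and 3.58 in ESCs for the other, which held under 1 CPM in every library. *Atf4* itself had 0.40 and 0.17 (standard error 0.037 for each), inside the fold limit. The fifth gene called in EpiLCs was *Chac1* (0.93, standard error 0.112). EdgeR and DESeq2 called 0 entries lower, although 3 in each state were below 0 at an unadjusted p under 0.05. Named after their values were seen, these were *Atf5* (−0.28), *Sesn2* (−0.14) and *Eif2ak4* (−0.13) in ESCs. In EpiLCs they were *Sesn2* (−0.53), *Stc2* (−0.35) and *Atf5* (−0.32). *Nupr1* had 6.83 to 8.19 CPM in Neg ESCs, 28.7 to 30.1 in 3xKD ESCs, 4.50 to 6.04 in Neg EpiLCs and 22.6 to 28.0 in 3xKD EpiLCs, so both states showed it high in the 3xKD line. *Asns*, usually counted among the targets of ATF4, had an order that differed from that of *Nupr1*, with 3xKD below Neg in ESCs and above Neg in EpiLCs. *Stc2* changed sign the other way, with 0.33 in ESCs and −0.35 in EpiLCs.

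**Figure D5:**
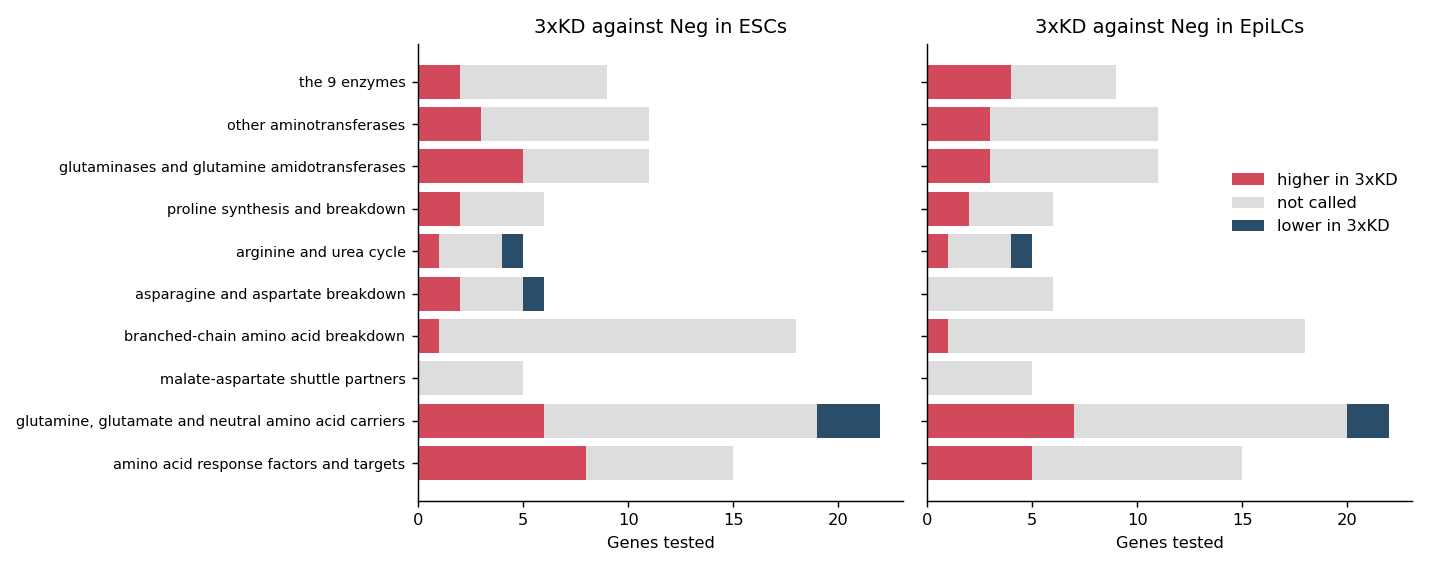
Number of genes called higher (red), not called (grey) and called lower (blue) in 3xKD against Neg for the 9 enzymes and 9 related lists, in ESCs (left) and EpiLCs (right). Calls above Neg outnumber those below in most lists. They do so over all genes tested too, 8.5% against 6.76% in ESCs and 7.88% against 5.35% in EpiLCs. Among the 5 malate-aspartate shuttle partners 0 genes were called, which is close to those shares in so short a list.

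The genes with the most similar pattern were found by Pearson's r of log2 CPM over the 12 libraries among 15031 genes that averaged 1 CPM or more. These r are descriptions, since the 12 libraries form 4 groups. *Fbxo15*, a gene known for its expression in undifferentiated ESCs, was the nearest to both *Asns* (r = 0.998) and *Bcat1* (r = 0.998), and *Asns* and *Bcat1* had r = 0.993 with each other. *Grn* and *Kirrel* followed for *Asns*, *Qars* and *Tle3* for *Bcat1*, and *Csrp1*, *Vstm5* and *Gli2* headed the list of *Ass1* (r = 0.998, 0.997 and 0.997). *Gpt2* was nearest to *Lig1* (r = 0.997), *Tecr* (0.995) and *Acss2* (0.995), and *Got1* to *Itga5* (0.995), *Fyttd1* (0.991) and *Srebf1* (0.991). *Glul* was nearest to *Zfp1001* (0.988), *Paf1* (0.981) and *Mtmr14* (0.980). Genes close to *Got2* included *Ankrd44* (0.987) and *Polh* (0.982), and those close to *Glud1* included *Gm47357* (0.982) and *F2rl1* (0.981). *Bcat2* had no match as close, with *Atg12* (0.940), *Rev1* (0.927) and *Nsl1* (0.926).

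The leading transcript carried most of the TPM of 8 of the 9 genes in every group median. *Got2* held between 90.6% and 98.3% of its TPM in 1 transcript in all libraries. *Glud1*, the exception, had 46.85% to 48.87% in its leading transcript by group median, with much of the rest in short entries. The leading share of *Asns* was 89.7% in Neg ESCs and 80.4% in 3xKD ESCs by group median, and 91.0% and 84.6% in EpiLCs, with ranges of 84.0% to 90.0% and 74.8% to 82.55% in ESCs. For *Gpt2* the leading share ranged from 47.8% to 99.5% over the libraries, the widest such range among the 9.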

How the data were processed

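The deposited values are the authors' estimated counts and TPM per transcript: the authors depleted ribosomal RNA, made directional single-end libraries, trimmed with Trim Galore 0.6.7, mapped to GRCm39 with Ensembl annotation by STAR 2.7.9a and quantified with Salmon 1.10.1. The molecule field of the labels gives polyadenylated RNA instead. The deposited TPM were scaled by the authors' quantifier for length and library total.

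Estimated counts were summed per gene, rounded, filtered at 10 counts in all, scaled by TMM and fitted with edgeR 4.0.16 (R 4.3.3) in 1 model of 4 groups, with its quasi-likelihood test and Benjamini-Hochberg adjustment over all genes tested. The standard error is the log2 fold change divided by the square root of F. TPM served for levels, ratios and transcript shares. Within groups, replicate pairs differed by more than sampling noise. The members, lists and tests were chosen with earlier results of these data known. Genes named are the 9 enzymes, the targeted and marker genes, the 3 largest called changes of each pathway list per knockdown comparison, and the 3 genes most alike to each enzyme, some of which are not reported here. List symbols were matched as written, and *Ctps1* and *Pycr3* were not found under those symbols. The fit was tested on simulated data. Locations and promoter windows come from GENCODE vM39 on GRCm39, which matched 99.0% of the gene IDs, and copies from blastn 2.17.0. Alternatives were DESeq2 1.42.0, other scalings and filters, transcript-length offsets, a replicate block, fits restricted to the groups compared, looser thresholds and omission of each library in turn. No set test was run.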

Additional observations from a re-analysis of the deposited data

Results flagged for a closer look

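The knockdown effect, 3xKD against Neg, differed between EpiLCs and ESCs for 5 of the 9 enzymes by edgeR's test of the difference itself at an adjusted p under 0.01 and with no fold limit, against 10% of all genes tested. All genes tested include many of lower count than these enzymes. The log2 difference, EpiLCs minus ESCs, was 1.39 for *Asns*, 1.16 for *Bcat1*, 0.58 for *Glud1*, 0.28 for *Glul* and −0.40 for *Got1*. For *Asns* and *Glud1* all 3xKD libraries were below all Neg libraries in ESCs and above all of them in EpiLCs. Such non-overlap was not counted over all genes. It also held for *Bcat1* in ESCs, where the log2 fold change was 0.06 (edgeR adjusted p = 0.17). The naive, formative and trophoblast marker lists differed between 3xKD and Neg EpiLCs as well, and their part in these values was not tested.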

How the results depend on the processing

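Of 981 values of single enzymes under the alternatives, 935 kept their direction and their side of the threshold, 7 were no longer called, 21 became called and 18 changed sign. Those that changed sign were close to 0, and the cause was not tested. They were *Got2* in Neg EpiLCs against Neg ESCs (0.012 with DESeq2 and with RLE factors, 0.076 with upper-quartile factors, 0.036 with transcript-length offsets, and −0.029 to 0.047 with each library left out), *Bcat2* in ESCs (0.00010 with upper-quartile factors, 0.020 with transcript-length offsets, −0.051 to 0.028 with each library left out), *Bcat2* in the 3xKD line (0.020 and 0.010 under the same 2 scalings) and the difference between states for *Ass1* (−0.013 with transcript-length offsets).

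With transcript-length offsets the difference between states was called for 3 enzymes (*Asns*, *Bcat1* and *Glud1*) and 731 genes in place of 5 and 2553. DESeq2 called that difference above 0 for 4 enzymes and below 0 for 2, with *Got2* among the latter. With an adjusted p under 0.05 and no fold limit, the enzymes called higher and lower were 4 and 3 in ESCs and 7 and 1 in EpiLCs, those called higher between states were 3 in the Neg and 2 in the 3xKD line, and all genes called were 10142, 9694, 11231, 10838 and 4127 for the 5 tests. With each library left out, enzymes called higher were 2 in ESCs and 3 to 4 in EpiLCs, and all genes called were 3417 to 3874 in ESCs, 2934 to 3390 in EpiLCs, 4888 to 5263 in the Neg line, 4419 to 4802 in the 3xKD line and 2084 to 2575 for the difference. *Got1* was not called in EpiLCs without 3xKD EpiLCs replicate 1 (0.58). For all genes, the difference between states had 1211 higher and 1342 lower calls, and 1522 and 824 with library size alone.

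No pairing by replicate number was detected: 0 of 18 pairs of libraries with the same number had a correlation of deviations above 0.1 (−0.135 to 0.0999). Of 36 pairs with other numbers, 6 were above 0.1 (−0.146 to 0.181). A lack of correlation cannot show that the cultures were not paired. With the replicate number as a block, 2 enzymes were called higher in ESCs, 4 in EpiLCs and 5 for the difference, and all genes called were 3792, 3277, 5169, 4664 and 2321. Standard errors of the 9 enzymes in the knockdown comparisons were 0.030 to 0.058, and that of *Nags*, a list gene of low count, was 0.305 in ESCs.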
